A study of Danio rerio with 10 samples.

Results

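Cytoplasmic ribosomal protein genes encode the protein part of the ribosome, the particle that translates messenger RNA (mRNA). In the mRNA tables they were taken by name, as every gene symbol that starts with rpl, rps or rplp followed by a number, without the rps6k kinases. This rule found 81 of 15335 listed genes, of which 33 carry names of the small subunit (40S), 44 carry names of the large subunit (60S) and 4 belong to the P stalk of the large subunit. Messenger RNA was measured in neutrophils sorted by a fluorescent reporter from zebrafish (Danio rerio) of the AB background at 3 days post fertilization. The neutrophils came from a transgenic line that expresses the microRNA miR-199 together with a GFP reporter (3 libraries, replicates 1, 2 and 3) or from a line with a vector control and the same kind of reporter (2 libraries, numbered 1 and 3). No other vector library was used. The labels used here name neither the promoter of the transgenes nor the number of larvae or founders behind a library. They also do not say whether the replicates came from separate clutches or sorts, so the p-values measure the spread between these libraries.

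Ribosomal proteins are made in near equal numbers, because each ribosome holds a single copy of nearly every one of them. The exception is the stalk, which carries several copies of P1 and P2 on P0 and recruits elongation factors. In vertebrates many ribosomal protein transcripts begin with a pyrimidine tract, called a TOP element, through which their translation responds to the mTOR kinase. Mature neutrophils are short-lived cells that no longer divide, and in mammals their ribosome production falls as they mature.

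Totals ran from 12339928 to 17024134 counts per library. The neutrophil character of the libraries was checked with a marker list, of which 17 genes were listed and none was at 0 in all libraries. Its summed level was 102705 and 114142 scaled CPM in the vector libraries (CPM are counts scaled to a library sum of 1e+06, here with edgeR's TMM scaling) and between 81003 and 86258 in the miR-199 libraries, with 0 of 16 tested markers called higher by edgeR (4 were higher at an unadjusted p under 0.05) and 4 called lower. Over all genes tested, 9.49% were called higher and 10.4% lower. The metalloproteinase gene mmp9 fell by 2.05 on the log2 scale (SE 0.50, edgeR adjusted p 0.0373) and the lysozyme gene lyz fell by 0.79 (SE 0.19, edgeR adjusted p 0.0359). Both lost the call without miR-199 replicate 2, with an edgeR adjusted p of 0.11 and 0.0931, and lyz is listed on an alternate locus only. Of the 16 tested markers, 6 had a positive log2 fold change and the rest a negative one. The largest positive one was that of cpa5 (0.58, SE 0.16, edgeR adjusted p 0.0553), which did not pass. The summed levels of the other marker lists were 68.1 and 80.6 scaled CPM in vector against 63.2 to 73.1 in miR-199 libraries for macrophages, 2215 and 3033 against 1801 to 2537 for keratinocytes, 6.48 and 6.87 against 8.33 to 22.8 for erythroid cells, 11.8 and 15 against 14.4 to 30.9 for muscle and 1.33 and 1.61 against 1.40 to 5.0 for neurons. In these lists edgeR called 0 genes higher (1 erythroid and 1 neuronal gene at an unadjusted p under 0.05) and 1 keratinocyte gene lower. Most of the keratinocyte sum came from the single gene icn, with 2115 and 2920 scaled CPM in vector and 1687 to 2459 in miR-199 libraries. Most of the macrophage sum came from lgmn, with 66.3 and 76.1 against 58.6 to 72.4 scaled CPM. At 0 in all 5 libraries were mpeg1.1, c1qa, c1qb and c1qc of the macrophage list, 7 of 17 keratinocyte genes with krt5 and epcam among them, 5 of 9 erythroid genes, 4 of 12 muscle genes and the neuronal gene elavl3. Of the listed genes, 4 of the macrophage, 3 of the keratinocyte, 2 of the erythroid and 3 of the muscle list sit on both a primary chromosome and an alternate locus, where counts are often 0. Among these are mpeg1.1, c1qa, c1qb, c1qc, krt5 and epcam, so their 0 counts are no measure of their expression. The part of the marker levels in the results below was not tested.

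Not every ribosomal protein gene could be measured. Of the 81 genes, 13 are listed both on a primary chromosome and on an alternate locus of the GRCz11 assembly, a second version of the same region. In 11 of these 13 the count stayed at or under 23 in every library. Among them were rps3a, rps13 and rpl39, with 0 counts in all 5 libraries, and rpl9, rpl12, rpl30, rpl32, rpl36a, rps15, rps27a and rpl13a. The other 2 were rpl5b, whose counts were 1046 and 870 for vector against 1493, 956 and 1472 for miR-199, and rpl21, with 349 and 215 against 385, 310 and 375. By contrast, of the 67 genes listed on a primary chromosome only, 66 had at least 198 counts in every library, and rps8b alone stayed at or under 6. The single gene listed on an alternate locus only, rpl10 (chromosome 23), had between 2987 and 4541 counts.

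The same split was seen over the whole table. Of 1810 genes listed on a primary chromosome and an alternate locus, 61.9% were at 0 in all 5 libraries, against 11.6% of 12966 genes listed on a primary chromosome only. How reads with several placements were counted is not given in the sources used here, so a value near 0 for a gene with 2 listed copies is no measure of its expression. These genes are left out of the comparisons of levels between genes, apart from the pair of rpl5a and rpl5b, and the 3 of them that passed the filter on low counts, rpl5b, rpl21 and rpl13a, are among the genes tested. After the filter on low counts 70 ribosomal protein genes could be tested. Of these, 69 had at least 10 scaled CPM in the vector libraries, and rpl13a passed only through its miR-199 libraries, with 8 and 1 counts in vector and 0, 9 and 23 in miR-199 libraries.

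**Figure D1:**
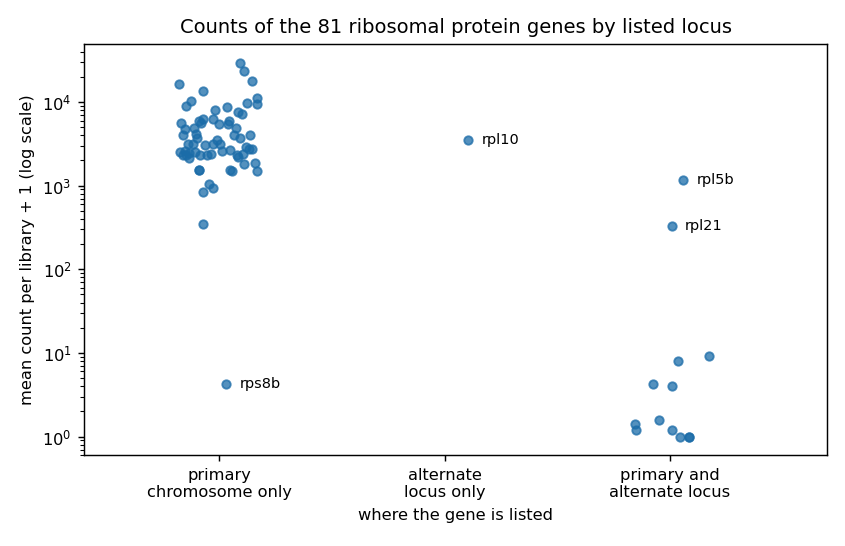
Mean count per library plus 1 (log scale) of the 81 ribosomal protein genes, 1 point per gene, by where the annotation lists the gene. Of 13 genes listed on a primary chromosome and an alternate locus, 11 lie far below most other genes, and only rpl5b and rpl21 do not. Among the genes listed on a primary chromosome only, rps8b alone is similarly low.

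In vector neutrophils the levels of the ribosomal protein genes spanned a wide range. Levels between genes were compared in TPM, for which the counts are divided by the listed exon length and scaled to a sum of 1e+06, over the 66 tested genes on a single primary locus. The median was 476 TPM, against 18.4 TPM over all genes tested. The middle of the group lay between 365 TPM (25th percentile) and 749 TPM (75th percentile), and the highest gene stood 62.5-fold above the lowest.

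The 5 highest genes were rps20, rps2, rpl19, rplp1 and rpl34. The gene rps20, of the 40S head, had 2590 and 2213 TPM in vector replicates 1 and 3, and rps2, a 40S protein near the channel where mRNA enters, had 2440.1 and 2287 TPM. Between these 2 genes the libraries overlap, so their order is not resolved. The 60S gene rpl19, whose protein helps to bridge the subunits, had 2264 and 2002 TPM and overlaps with rps20 but not with rps2. Next came the stalk gene rplp1 with 1591 and 1338 TPM and rpl34 with 1501 and 1219.9 TPM, which also overlap with each other. The next gene, rpl3, had 1383 and 1337 TPM and overlaps with both, so the fourth to sixth places are not resolved by these ranges. Read library by library, rpl19 was below rps20 and rplp1 above rpl34 in both vector libraries. The order of rps20 and rps2, and that of rpl34 and rpl3, changed between the libraries.

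The 5 lowest genes on a single locus were rpl22l1, rpl7l1, rpl31, rps27.2 and rps24. Of these, 3 are second copies or relatives of another member: rpl22l1 with 44.7 and 32.2 TPM, rpl7l1 with 96.3 and 90.3 TPM, and rps27.2 with 115 and 85.5 TPM. The remaining 2 were rps24 with 113 and 97.0 TPM and rpl31 with 106 and 94.0 TPM. They have long listed exon sets of 1759 and 1228 bases, against a median of 549 bases over the 66 genes. By its definition TPM falls as the listed length rises, but the part of length in their low rank was not tested. Without division by length, rps24 had 135 and 120 scaled CPM in vector and rpl31 had 88.2 and 81.2. The libraries of rpl22l1 lay below those of the other 4 genes, and those of rpl7l1, rpl31, rps27.2 and rps24 overlap between neighbours in the order.

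In miR-199 neutrophils the ribosomal protein genes took a larger part of the mRNA. Their counts made up 1.92% and 1.65% of all counts in vector replicates 1 and 3, and 3.04%, 2.7% and 3.07% in miR-199 replicates 1, 2 and 3. All miR-199 libraries lay above both vector libraries. The mean share of the vector libraries was 1.78% ± 0.188 (SD, n = 2). That of the miR-199 libraries was 2.94% ± 0.209 (SD, n = 3), which is 1.65-fold higher. As a share of TPM, a choice made after seeing the data, the means were 4.26% ± 0.476 (SD, n = 2) and 7.38% ± 0.475 (SD, n = 3), 1.73-fold higher. In these bulk libraries, more cells of a type that holds much ribosomal protein mRNA and more such mRNA per cell cannot be told apart.

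Both subunits and the stalk had higher shares in the miR-199 libraries, by factors of 1.55 to 1.68. For the 40S genes the share was 0.724% ± 0.0826 (SD, n = 2) with the vector and 1.21% ± 0.0980 (SD, n = 3) with miR-199, 1.68-fold higher. For the 60S genes it was 1.64-fold higher, at 0.892% ± 0.0853 (SD, n = 2) against 1.47% ± 0.0908 (SD, n = 3). For the stalk the shares were 0.180% and 0.152% in vector and 0.267%, 0.232% and 0.273% in miR-199 libraries, a factor of 1.55. The ratio of 40S counts to 60S and stalk counts was 0.690 and 0.676 in vector and 0.721, 0.689 and 0.699 in miR-199 libraries, so it overlaps between the groups.

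The ribosomal protein genes of the mitochondrion, which serve a separate ribosome, were read beside them. The 74 listed mrpl and mrps genes held 0.214% and 0.212% of the counts with the vector and 0.220%, 0.207% and 0.215% with miR-199. Here the groups overlap. Of 64 tested genes of this list, 0 were called higher by edgeR (1 at an unadjusted p under 0.05) and 2 lower (8 at an unadjusted p under 0.05). The shares called over all genes tested were 9.49% higher and 10.4% lower. The median log2 fold change of the list was -0.076. The lowered genes were mrps18a, which fell by 0.72 (SE 0.13, edgeR adjusted p 0.0182), and mrpl33, which fell by 0.63 (SE 0.17, edgeR adjusted p 0.0468). The call of mrpl33 was lost without miR-199 replicate 2 (edgeR adjusted p 0.109) and without replicate 1 (0.0623).

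**Figure D2:**
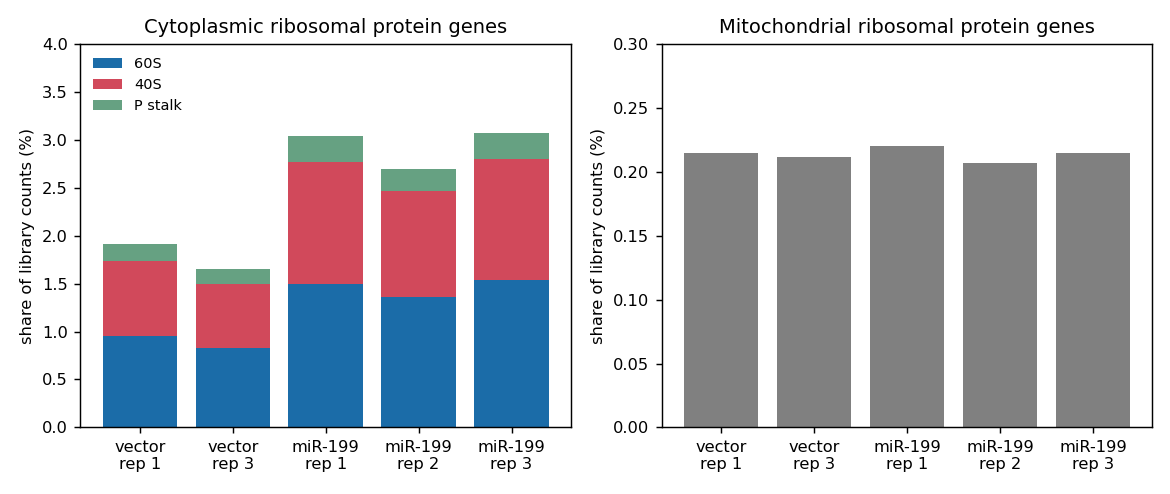
Share of all library counts (%) taken by 81 cytoplasmic ribosomal protein genes, stacked by subunit (left), and by 74 mitochondrial ribosomal protein genes (right, other scale), in each of 5 libraries. The cytoplasmic share is 1.65% and 1.92% in vector and 2.7% to 3.07% in miR-199 libraries, while the mitochondrial share lies between 0.207% and 0.220% in all 5.

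Gene by gene, edgeR's quasi-likelihood test set miR-199 against vector neutrophils on the counts of the whole table, with Benjamini-Hochberg adjustment over 8897 genes. Of the 70 tested ribosomal protein genes, 43 were called higher at an adjusted p under 0.05, which is 61.4%, and 0 were called lower. Over all genes tested, 9.49% were called higher and 10.4% lower. In a separate fit of the genes with at least 100 counts in 2 libraries, 12.6% of 6857 genes were called higher. Of the ribosomal protein genes in that fit, 47 of 69 (68.1%) were. None of the ribosomal protein genes had a lower level at an unadjusted p under 0.05, and DESeq2 and limma voom also called 0 lower. The median log2 fold change was 0.57 over the 70 genes (25th to 75th percentile 0.49 to 0.67), a factor of 1.48, and 0.019 over all genes tested (-0.45 to 0.51).

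Of the 70 genes, 53 had a log2 fold change between 0.4 and 0.8, and 2 of the called genes rose at least 2-fold. In 65 of the 70 genes all 3 miR-199 libraries lay above both vector libraries, against 28.9% of all genes tested. The other 5 were rplp2l, rpl7l1, rpl10, rpl11 and rpl13a. The 40S genes had 17 of 28 tested genes called higher with a median of 0.53, the 60S genes 24 of 38 with a median of 0.58, and the stalk 2 of 4 with a median of 0.44. Scaled to library totals in place of TMM, the median of all genes tested shifted by 0.13. The calls over all genes went from 844 higher and 928 lower to 1139 and 674. Relative to the median of all genes, the ribosomal protein median was 0.55 with either scaling. A change of scaling moves all genes by nearly the same amount, so this equality holds nearly by construction and tests nothing.

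The number of calls rests on single libraries. Without vector replicate 1, 0 ribosomal protein genes and 2 of all genes tested were called by edgeR, and without vector replicate 3, 0 and 0 were; in these fits the lone vector library is assumed to vary like the miR-199 libraries. At an unadjusted p under 0.05, 48 and 25 of 71 ribosomal protein genes passed in these 2 fits, against 19.5% and 17.1% of all genes tested. Their median log2 fold change was 0.68 and 0.51. Without miR-199 replicate 2, 24 of 69 ribosomal protein genes were called (34.8%), 23 of them among the 43. In that fit 400 of 8770 genes tested were called higher and 526 lower. These limits hold for every call named here and below.

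**Figure D3:**
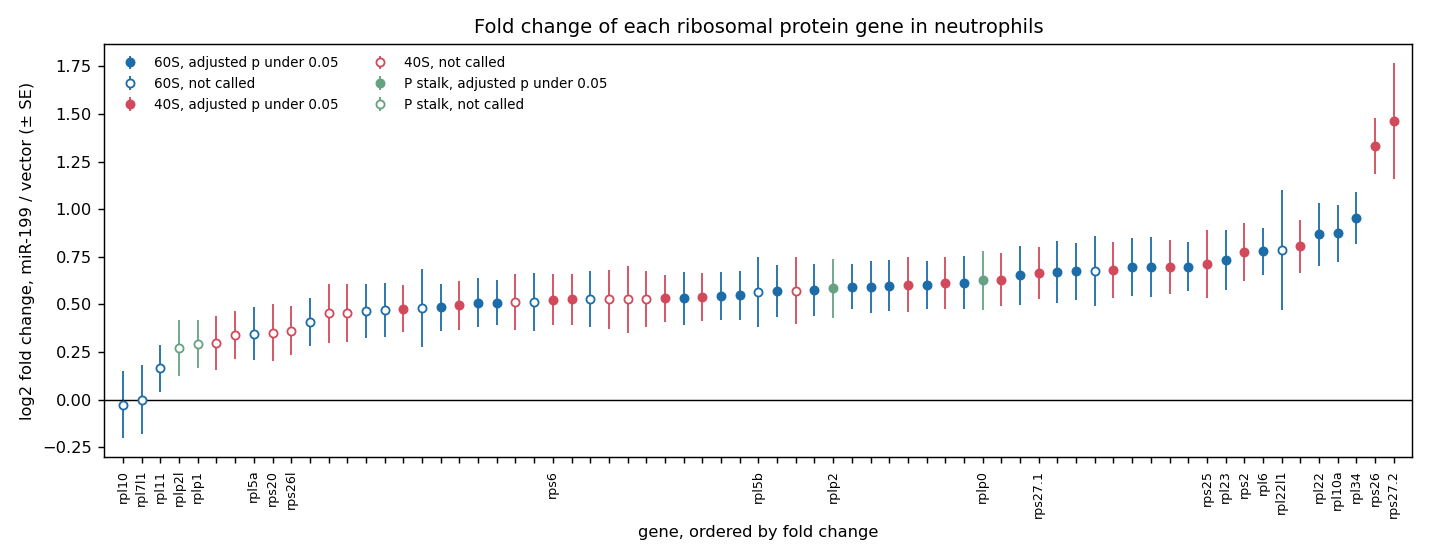
Log2 fold change of miR-199 over vector neutrophils (point) with its standard error (bar) for 69 ribosomal protein genes with at least 10 scaled CPM in vector, ordered by fold change and coloured by subunit, with names for genes described in the text. Filled points have an edgeR adjusted p under 0.05. Most genes lie between 0.4 and 0.8, with rps26 and rps27.2 at the top and rpl10 and rpl7l1 near 0.

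The stalk genes did not all pass. The gene rplp0 (chromosome 5, 1950658 to 1963486, minus strand, 8 exons), the base of the stalk, had 916 and 823 scaled CPM in vector and 1399, 1170.1 and 1458 in miR-199 libraries, with no overlap. Its log2 fold change was 0.63 (SE 0.15, edgeR adjusted p 0.0385). The gene rplp2 (chromosome 6, 49508803 to 49511576) had 230.2 and 207 scaled CPM against 348, 280.2 and 357, which gave a log2 fold change of 0.59 (SE 0.15, edgeR adjusted p 0.0462). Both calls were lost when miR-199 replicate 3 was left out, with an edgeR adjusted p of 0.0519 for rplp0 and 0.0591 for rplp2.

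For rplp1 (chromosome 19, 1852270 to 1855351) the miR-199 libraries were close together at 600.2, 617 and 618 scaled CPM, above 533 and 466 in vector. Its log2 fold change of 0.29 (SE 0.13) had an edgeR adjusted p of 0.147. This gene overlaps the listed span of ptk2aa, and use of strand in counting is not given in the sources used here, so reads of the 2 genes could not be kept apart with certainty. The second P2 gene, rplp2l, had 179 and 149 scaled CPM in vector and 207, 178 and 209 in miR-199 libraries, so the groups overlap (log2 fold change 0.27, SE 0.15, edgeR adjusted p 0.228).

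Among the 40S genes, rps26 stood apart. Its protein lies at the channel where mRNA leaves the subunit. The gene (chromosome 23, 27675600 to 27677516, plus strand, 4 exons) had 93.2 and 78.8 scaled CPM in vector and 239.5, 209 and 202 in miR-199 libraries. All miR-199 libraries were above 200 and both vector libraries under 100. The log2 fold change was 1.33 (SE 0.15), a factor of 2.52, with an edgeR adjusted p of 0.00704. Without vector replicate 1 or 3 the edgeR adjusted p was 0.101 and 0.131.

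The largest fold change was that of rps27.2 (chromosome 16, 23788616 to 23797545, minus strand), a second gene for the zinc-finger protein Rps27. Its level was 40.5 and 31.3 scaled CPM in vector and 85.3, 74.6 and 138 in miR-199 libraries, with replicate 3 far above the others. The log2 fold change was 1.47 (SE 0.30, edgeR adjusted p 0.0257).

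Among the other called 40S genes, rps2 had 1468 and 1429.8 scaled CPM in vector and 2611, 2144 and 2687 in miR-199 libraries (log2 fold change 0.78, SE 0.15, edgeR adjusted p 0.0229). The gene rps25 rose by 0.71 (SE 0.18, edgeR adjusted p 0.0405). The gene rps6, whose protein is phosphorylated by S6 kinase downstream of mTOR, had 352 and 345 scaled CPM in vector and 551, 455 and 496 in miR-199 libraries. Its log2 fold change was 0.52 (SE 0.13, edgeR adjusted p 0.0430, and 0.0585 without miR-199 replicate 2). At the other end, rps20, the gene with the highest TPM, had 845 and 750.3 scaled CPM against 1155, 957 and 943, a log2 fold change of 0.35 (SE 0.15) that did not pass (edgeR adjusted p 0.150).

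Among the 60S genes the largest called rise was that of rpl34 (chromosome 7, 59649399 to 59664545, plus strand). It had 437 and 369 scaled CPM in vector and 799, 788 and 753 in miR-199 libraries, close to each other and far above vector (log2 fold change 0.95, SE 0.14, edgeR adjusted p 0.0111). It was followed by rpl10a with 0.87 (SE 0.15, edgeR adjusted p 0.0164), rpl22 with 0.87 (SE 0.17, edgeR adjusted p 0.0205), rpl6 with 0.78 (SE 0.12, edgeR adjusted p 0.0138) and rpl23 with 0.73 (SE 0.16, edgeR adjusted p 0.0284). The call of rpl23 was lost without miR-199 replicate 2 (edgeR adjusted p 0.0692). In mice, Rpl22 is dispensable for most protein synthesis but needed for the development of a class of T cells.

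The proteins Rpl5 and Rpl11 bind 5S ribosomal RNA together and, in mammals, inhibit Mdm2 when ribosome assembly is disturbed. Here rpl11 (chromosome 19, 43780973 to 43786942) had 104 and 91.6 scaled CPM in vector and 112, 103 and 113 in miR-199 libraries. The groups overlap, and the log2 fold change of 0.16 (SE 0.13) did not pass (edgeR adjusted p 0.387). For rpl5a the levels were 148 and 137 against 171, 169.5 and 203 scaled CPM (log2 fold change 0.35, SE 0.14, edgeR adjusted p 0.124), and for rpl5b, which is listed at 2 loci, 63.3 and 63.6 against 98.2, 75 and 109 (0.57, SE 0.18, edgeR adjusted p 0.0786).

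No rise was seen for rpl10 and rpl7l1. Rpl10 is added late in the assembly of the large subunit in yeast. The gene had 275 and 218 scaled CPM in vector and 205, 249 and 273 in miR-199 libraries, so the groups overlap. The relative rpl7l1, which in human cells is found in early precursors of the large subunit, had 66.4 and 64.6 scaled CPM in vector and 57.4, 59.7 and 79.3 in miR-199 libraries. The log2 fold changes were -0.026 (SE 0.18, edgeR adjusted p 0.929) for rpl10 and -0.0010 (SE 0.18, edgeR adjusted p 0.997) for rpl7l1, and their sign changed with the scaling, to 0.10 and 0.13 with library totals.

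**Figure D4:**
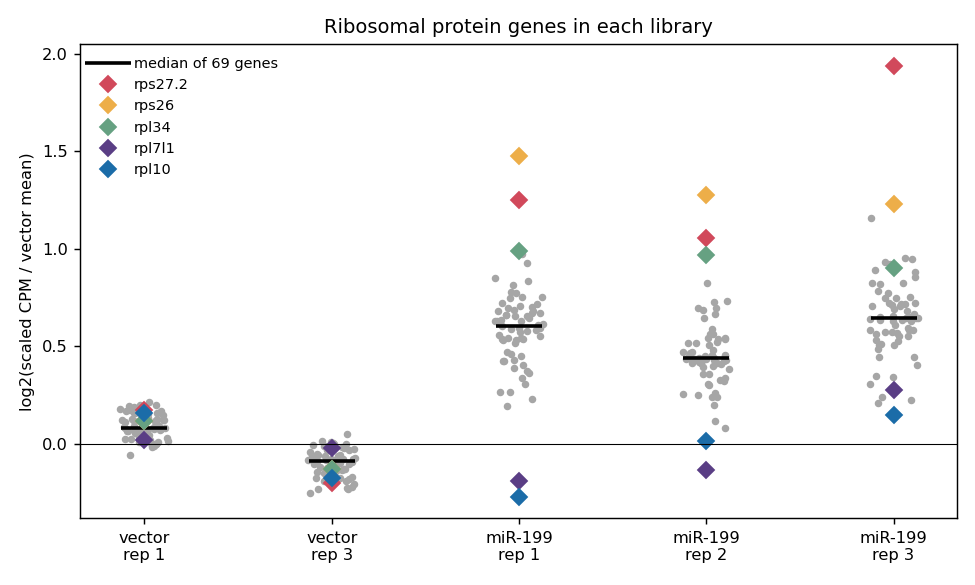
Log2 ratio of each gene's scaled CPM to its mean in the vector libraries, in each of 5 libraries, for 69 ribosomal protein genes with at least 10 scaled CPM in vector (grey points; black bars, median; diamonds, 5 named genes). The group as a whole lies higher in the 3 miR-199 libraries, rps26 and rps27.2 lie above it and rpl10 and rpl7l1 below it.

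To ask which genes departed from the rest of the ribosomal protein genes, the same edgeR fit was run with each library scaled to the summed counts of the 81 genes. This scaling makes the summed counts of the group equal in all libraries, so the group lies near 0 by construction. On this relative scale 62 of the 70 genes lay between -0.3 and 0.3 on the log2 scale, and 4 were called, 2 higher and 2 lower. Over all genes 3.57% were called higher and 35.3% lower on this scale. Neither share was exceeded in the group, so the number of calls is not read as a result about it. The genes above the group were rps26, by 0.75 (SE 0.17, edgeR adjusted p 0.0137), and rps27.2, by 0.87 (SE 0.26, edgeR adjusted p 0.0349). Those below it were rpl10, by -0.61 (SE 0.19, edgeR adjusted p 0.0424), and rpl7l1, by -0.60 (SE 0.19, edgeR adjusted p 0.0419). The gene rpl11 was at -0.42 (SE 0.15) and did not pass (edgeR adjusted p 0.0562). With either vector library left out all 4 calls were lost (edgeR adjusted p 0.0853 to 0.254). Without miR-199 replicate 1 the called genes were rps26 and rps27.2, while rpl10 was at -0.48 (edgeR adjusted p 0.0887) and rpl7l1 at -0.49 (0.0825). The call of rpl7l1 was also lost without miR-199 replicate 2 (edgeR adjusted p 0.0764) and that of rpl10 without replicate 3 (0.0533).

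Several of the proteins are encoded by a pair of related genes, and the balance within the pair was compared as the share of the second gene in counts per base. In the pair of rps26 and rps26l the second gene made up 55.7% and 57.4% in the vector libraries and 37.9%, 38.8% and 43.0% in the miR-199 libraries. The groups do not overlap, and the gene of the pair with more counts per base was rps26l in vector and rps26 in miR-199 neutrophils. By itself rps26l had 116 and 105 scaled CPM against 144, 130.5 and 151, a log2 fold change of 0.36 (SE 0.13, edgeR adjusted p 0.0955). For rps27.2 beside rps27.1 the share was 9.96% and 9.14% in vector and 13%, 12.8% and 20.6% in miR-199 libraries. The main gene rps27.1 rose by 0.66 (SE 0.14, edgeR adjusted p 0.0253, and 0.0548 without miR-199 replicate 2).

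In the pair of rplp2 and rplp2l the second gene made up 41.3% ± 1.39 (SD, n = 2) with the vector and 36.3% ± 1.01 (SD, n = 3) with miR-199. The share of rpl7l1 beside rpl7 was 14.6% ± 0.337 (SD, n = 2) against 10.7% ± 1.53 (SD, n = 3). In these 4 pairs the groups did not overlap. Each had an exact permutation p of 0.2 (two-sided, on the log2 ratio), the smallest that 3 libraries against 2 can give. The share of other gene pairs without overlap was not computed, so the number of such pairs is not read as a result. These pairs also hold rps26, rps27.2 and rpl7l1, which were singled out above by their own fold changes. The shares overlapped for rpl5b beside rpl5a, at 30.9% ± 1.28 (SD, n = 2) and 34.0% ± 2.99 (SD, n = 3), with an exact permutation p of 0.4. They also overlapped for rpl22l1 beside rpl22, at 5.03% ± 0.181 (SD, n = 2) and 4.82% ± 1.52 (SD, n = 3), with an exact permutation p of 1. The second copy rps8b stayed at or under 0.102% of its pair with rps8a. How reads shared by near-identical copies were counted is not given in the sources used here, so the shares are those of the reads that were assigned.

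**Figure D5:**
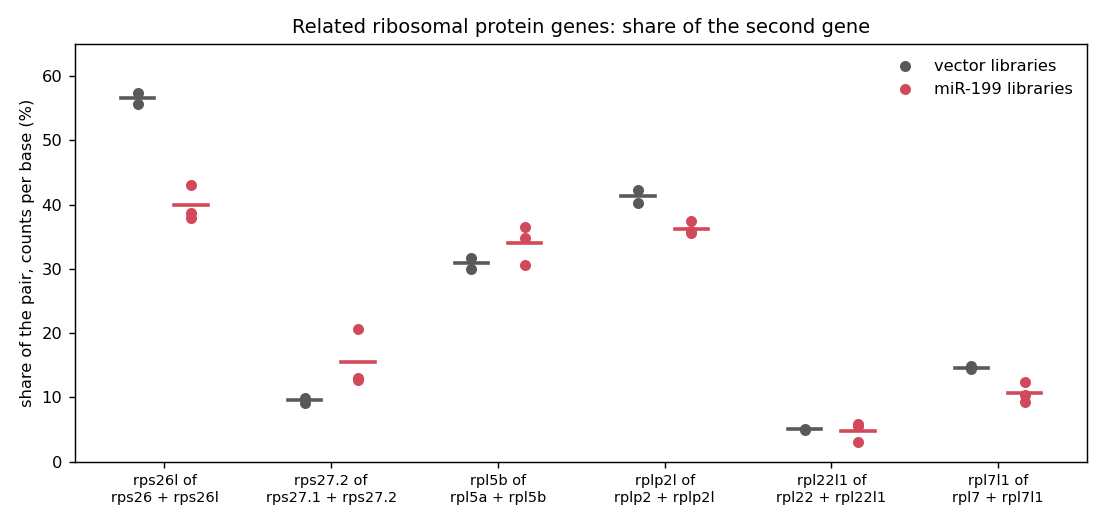
Share of the second gene in 6 pairs of related ribosomal protein genes, in counts per base (%), with 1 point per library and a line at the group mean. The miR-199 libraries (red) lie below the vector libraries (grey) for rps26l, rplp2l and rpl7l1, above them for rps27.2, and overlap with them for rpl5b and rpl22l1.

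The ribosomal protein genes also shared an order among the libraries of one group. Vector replicate 3 was below vector replicate 1 in 64 of 70 genes, and miR-199 replicate 2 was the lowest miR-199 library in 56 of 70. The shares of all genes tested with these orders are not given here, so the orders are not read as particular to the ribosomal protein genes. The median standard deviation of log2(scaled CPM + 1) over the ribosomal protein genes was 0.12 in vector (n = 2) and 0.12 in miR-199 libraries (n = 3). Over all genes tested it was 0.10 and 0.26. Standard deviations of 2 and of 3 libraries are not directly comparable, so the equal medians are not read as equal spread. Gene length moved with the difference between the vector libraries. For 36 single-locus genes under 600 bases the median log2 ratio of vector replicate 3 to replicate 1 was -0.25, and for 30 longer ones it was -0.10. Over all tested genes on a primary chromosome only, the medians were -0.11 for 184 genes under 600 bases and 0.016 for 8109 longer ones. The median log2 fold change of miR-199 over vector was 0.58 for the short and 0.55 for the long ribosomal protein genes, with 23 of 36 and 20 of 30 called.

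Ribosomal protein genes that the name rule does not reach were read from a separate list. The gene rpsa, a 40S protein also known as a laminin receptor, had 824 and 846 scaled CPM in vector and 1508, 1305 and 1451 in miR-199 libraries, and rose by 0.77 (SE 0.13, edgeR adjusted p 0.0165). Higher in all 3 miR-199 libraries without passing were faua (log2 fold change 0.42, SE 0.13, edgeR adjusted p 0.0707), which joins a ubiquitin-like protein to Rps30, and gnb2l1 (0.43, SE 0.15, edgeR adjusted p 0.0961), the older symbol of the scaffold protein gene rack1.

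Dedicated chaperones hold single ribosomal proteins until they are built in. Of 6 tested chaperone genes 4 were called higher and 0 lower by edgeR (0 lower at an unadjusted p under 0.05), with a median of 0.72. The shares called over all genes tested were 9.49% higher and 10.4% lower. The gene heatr3, whose yeast counterpart escorts Rpl5 and Rpl11, had 20.8 and 20.5 scaled CPM in vector and 53.3, 47.5 and 37.3 in miR-199 libraries (log2 fold change 1.16, SE 0.21, edgeR adjusted p 0.0172, and 0.0523 without miR-199 replicate 2). The gene bccip, whose yeast counterpart binds Rpl23, rose by 0.79 (SE 0.12, edgeR adjusted p 0.0135), aamp, whose yeast counterpart binds Rpl10, by 0.65 (SE 0.12, edgeR adjusted p 0.0187), and tsr2, the partner of Rps26, by 0.59 (SE 0.16, edgeR adjusted p 0.0456). The call of tsr2 was lost without miR-199 replicate 2 (edgeR adjusted p 0.0843) or 3 (0.0528). In a list of genes with related names, which also holds rpl7l1 and rpl22l1 (log2 fold change 0.79, SE 0.32, edgeR adjusted p 0.128), 1 of 3 tested genes was called higher. This was rsl24d1, whose yeast counterpart holds the place of Rpl24 in early precursors, and which had 126 and 125 scaled CPM in vector and 389, 313 and 395 in miR-199 libraries (log2 fold change 1.54, SE 0.15, edgeR adjusted p 0.00659).

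Elongation and initiation factors were read from further lists. Over all genes tested, 9.49% were called higher and 10.4% lower. In the separate fit of genes with at least 100 counts in 2 libraries, 12.6% were called higher. The calls below are those of the fit of 8897 genes. Of 9 tested elongation factor genes 4 were called higher and 0 lower by edgeR (0 lower at an unadjusted p under 0.05), with a median of 0.40. All 4 called genes encode subunits of the complex that recharges eEF1A with GTP: eef1da rose by 1.56 (SE 0.32, edgeR adjusted p 0.0255), eef1db by 1.27 (SE 0.17, edgeR adjusted p 0.00914), eef1g by 0.64 and eef1b2 by 0.63 (edgeR adjusted p 0.0267 and 0.0272, the latter 0.0669 without miR-199 replicate 2). A gene for eEF1A itself, eef1a1l1, had 3388 and 3413 scaled CPM in vector and 3820.3, 4010.4 and 4476 in miR-199 libraries, and its log2 fold change of 0.27 (SE 0.14) did not pass (edgeR adjusted p 0.210). Of 45 tested initiation factor genes 9 were called higher and 0 lower (2 lower at an unadjusted p under 0.05). Their median was 0.13, against 0.019 over all genes tested. Among the called genes the largest rises were those of the helicase gene eif4a2 (1.78, SE 0.30, edgeR adjusted p 0.0152) and of eif3g (0.99, SE 0.17, edgeR adjusted p 0.0154). The level of eif4a2 was low, at 12.2 and 10.7 scaled CPM in vector and 51.5, 38.0 and 28.2 in miR-199 libraries. Its far more abundant relative eif4a1a went the other way, from 990 and 1046.5 to 348, 389 and 739 scaled CPM. That fall did not pass (log2 fold change -1.05, SE 0.33, edgeR adjusted p 0.0713).

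A list of regulators of TOP transcripts and of mTOR had 4 of 10 tested genes called higher and 0 lower by edgeR (1 lower at an unadjusted p under 0.05). Over all genes tested, 9.49% were called higher and 10.4% lower. The called genes of the list included 3 genes for 4E-BPs, proteins that block the cap-binding factor eIF4E when mTOR is inactive. The gene eif4ebp3 had 14.4 and 12.5 scaled CPM in vector and 69.8, 47.6 and 44.0 in miR-199 libraries (log2 fold change 2.00, SE 0.26, edgeR adjusted p 0.00935). Its relative eif4ebp3l rose by 1.71 (SE 0.16, edgeR adjusted p 0.00653) and eif4ebp1 by 0.93 (SE 0.14, edgeR adjusted p 0.0125). A further 4E-BP gene, eif4ebp2, had 763 and 785 scaled CPM against 692, 554 and 575 (log2 fold change -0.35, SE 0.14, edgeR adjusted p 0.135). The kinase gene mtor itself overlapped between the groups (0.021, SE 0.27, edgeR adjusted p 0.963). From a further list, sesn1, the gene for a sestrin that restrains mTOR complex 1, had 29.1 and 23 scaled CPM in vector and 488, 586 and 310.5 in miR-199 libraries. All miR-199 libraries lay far above both vector libraries, and the log2 fold change was 4.14 (SE 0.34, edgeR adjusted p 0.00574).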

How the data were processed

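The authors deposited 1 table of raw read counts per gene symbol for each mRNA library, made with the SMART-Seq v4 kit per the labels' protocols. The submitters' processing notes name STAR 2.5, featureCounts, Subread 1.5.1, edgeR 3.20.8 and the build GRCz11, and coordinates are as the files list them. How multiply placed reads were counted, and whether strand was used, is not given in the sources used here. The small RNA table lists no ribosomal protein gene and was not used.

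Libraries were grouped by title. The 3 miR-199 and 2 vector libraries were compared with edgeR 4.0.16 (glmQLFit and glmQLFTest, two-sided, TMM scaling, filterByExpr by group, Benjamini-Hochberg over 8897 genes) in R 4.3.3. Genes with an adjusted p under 0.05 were called. Standard errors are log2 fold changes over the root of F. Scaled CPM used TMM library sizes, and TPM used the listed exon length. Pairs with a gene on 2 loci used its length divided by 2. DESeq2 1.42.0, limma 3.58.1, other scalings and filters, a replicate block and each library left out were alternatives. Scripts were tested on simulated data, whose spread between libraries was set lower than that of these data. Replicate pairs differed by more than sampling noise (chi-square per degree of freedom 14.5 to 114). Limits of counting were 3 counts, 0.176 to 0.243 CPM.

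The ribosomal protein genes and all lists were chosen with earlier results of these data known. Named by rule were the stalk genes, the 5 highest and 5 lowest by TPM, the 10 largest called rises, related pairs, genes at 0, rpl5, rpl11 and rps6 forms, genes outside the name rule, and the 2 largest called rises and falls of other lists; other genes were named after their values were seen. Some genes that the rule takes, and 1 list, are not reported here. The scaling to the ribosomal protein total was chosen after seeing the data.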

Additional observations from a re-analysis of the deposited data

How the results depend on the processing

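The rise of the ribosomal protein genes kept its direction in every alternative run: the median log2 fold change lay between 0.51 and 0.70 (0.70 with library totals) and 0 of these genes were called lower. The number called was 43, and 38 to 57 with other scalings, filters, DESeq2 or limma voom. With single libraries left out it ran from 0 to 43 (0 to 2195 over all genes). On the scale of the ribosomal protein total 4 were called, and 0 to 3 with single libraries left out. DESeq2 called 2673 genes against 1772. With the replicate number as a block, 110 genes and 0 ribosomal protein genes were called, with a median of 0.63; vector and miR-199 libraries share only the numbers 1 and 3, this fit keeps 1 residual degree of freedom, and deviations of same-numbered libraries correlated at -0.22 and -0.18, so the numbers were not taken as pairs. The difference in share was 1.15 percentage points and 1.02 to 1.29 with other totals or single libraries left out. This movement between settings, not the difference itself, was within the spread between replicates (SD 0.188 in vector and 0.209 in miR-199 libraries). As a share of TPM, added after seeing the data, the difference was 3.12 points. The median vector level of 476 TPM was 461 TPM without vector replicate 1 and 520 TPM without vector replicate 3, and 175 in scaled CPM. Of 713 values for 51 genes taken by the naming rule under 14 alternatives, 702 kept their direction, 123 lost and 12 gained a call. The 11 others belong to rpl7l1 and rpl10. For rpl7l1 the log2 fold change became 0.13 with library totals, 0.0040 with TMM without the ribosomal protein genes, 0.0040 without a low-count filter, 0.023 with at least 100 counts, 0.043 with the block, and 0.012 to 0.10 with vector replicate 1, miR-199 replicate 1 or 2 left out (0.064 without replicate 2; lowest -0.16, without miR-199 replicate 3). For rpl10 it became 0.10 with library totals, 0.14 without vector replicate 1 and 0.099 without miR-199 replicate 1. The cause was not tested. At this depth a count of 0 allows up to 0.176 to 0.243 CPM in a library, for counting error only.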
